A study of Oryza sativa Japonica Group with 6 samples.

Results

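Rice genes annotated as proteinase inhibitors, proteins that block protein-digesting enzymes, were followed in leaves of 14-day-old seedlings (Oryza sativa, Japonica group). Members were taken by their text annotation, which had to name a proteinase or protease inhibitor, a Bowman-type inhibitor, a trypsin inhibitor, a cystatin or a subtilisin inhibitor. Annotations that mention lipid transfer, seed storage or amylase were left out, and a gene needed a read in at least 3 of the 6 libraries. Of 37863 genes in the deposited table, 44 fitted the text and 24 of these also had the reads. The tested plants were OsWRKY65-2, a transgenic line overexpressing the transcription factor OsWRKY65, and they were compared with wild type (WT), with 3 polyA RNA libraries of each. Both genotypes were raised on MS medium in long days and no other agent or allele is given in the labels. The overexpressor is a single line, and its promoter is not given in the sources used here.

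Plants make proteinase inhibitors against the digestive enzymes of insects and microbes and to hold their own proteases in check. Bowman-Birk, Kunitz, potato-type and chymotrypsin inhibitors and serpins act mainly on serine proteases, while cystatins act on cysteine proteases of the papain type. Many are switched on by wounding and jasmonate, and others accumulate in seeds. WRKY proteins are a plant family of transcription factors with many members in defence responses.

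Libraries held between 20585288 and 29720852 counts. The 3 table columns of the overexpressor carry its name and replicate number, and the other 3, headed IM1, IM2 and IM3, were taken as WT because no other columns are left for the WT samples, so every direction below rests on that reading. Os12g0116800 on chromosome 12, taken as OsWRKY65 from an older locus name with its counts already known, was at 69.5, 42.3 and 1039.6 CPM in OsWRKY65-2 replicates 1 to 3, against 4.16, 0 and 0 CPM in WT IM1 to IM3 (CPM are counts per 1000000, scaled between libraries by TMM factors). OsWRKY65-2 replicate 3 stood apart: it correlated with the other libraries at r = 0.603 to 0.695 across genes, whereas all other pairs reached 0.856 to 0.926, and 17.9% of tested genes had no count in it, against 0.690% to 4.76% elsewhere. Leaf markers of photosynthesis were high everywhere, summing to 50530 to 61315 TPM in OsWRKY65-2 and 34365 to 51476 TPM in WT (TPM are transcript levels scaled for length and library). Of 52 seed storage protein genes 40 had no count in any library, and the list summed to 314 to 368 TPM in OsWRKY65-2 and 440 to 573 TPM in WT. Meristem and dividing-cell markers were at 2.95 and 329 TPM in OsWRKY65-2 replicate 3, against at least 34.9 and 882 TPM in each of the other 5 libraries. The root list summed to 199 TPM in OsWRKY65-2 replicate 3 and to 79.0 to 135 TPM in the others. The part of these differences in the results was not tested. In whole leaves, fewer cells of a type and less RNA per cell cannot be told apart.

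No proteinase inhibitor passed the test between genotypes. In edgeR's quasi-likelihood test over 23769 genes, 0 of 22 tested members passed a Benjamini-Hochberg threshold of 0.05 in either direction, where the share over all genes was also 0% higher and 0% lower. The lowest adjusted p of a member was 0.763. The test did not call Os12g0116800, taken as OsWRKY65, either, at a log2 fold change of 8.04 ± 2.62 (SE, edgeR adjusted p = 0.763). At an unadjusted p under 0.05 there was 1 member, against 6.51% of all tested genes. DESeq2 called 0 of 22 members in either direction, and gave 20 of them an adjusted p. It called 1.76% of the 23769 genes higher and 1.27% lower, a share that also counts genes without an adjusted p. Fold changes were positive for 15 of 22 members, against 49.5% of all tested genes, with a median log2 fold change of 0.64 against -0.01 over all genes. The tilt depended on the libraries and on the fit. Without OsWRKY65-2 replicate 3 the median over the same 22 members was 0.09, and it was -0.10 over the 23 members then tested, against 0.02 over all genes, with 11 of 23 positive against 51.6% of all genes. Without WT IM3 it was 0.44 over 24 members, against -0.04 over all genes. The omission of a different single library left the tilt in place. The median was then 0.62 without OsWRKY65-2 replicate 2, 0.67 without WT IM1, 0.75 without OsWRKY65-2 replicate 1 and 0.93 without WT IM2. With all 6 libraries kept, the members' median was 0.20 in limma-voom, 0.064 in edgeR with the replicate number as a block and -0.12 in limma-trend on log2(TPM + 1), where all genes had medians of -0.11, -0.10 and -0.28. The members' own median in each library, relative to the WT mean on a log2(CPM + 0.5) scale, was 0.14, -0.06 and 0.90 in OsWRKY65-2 replicates 1 to 3, and 0.22, 0.26 and -0.70 in WT IM1 to IM3.

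**Figure D1:**
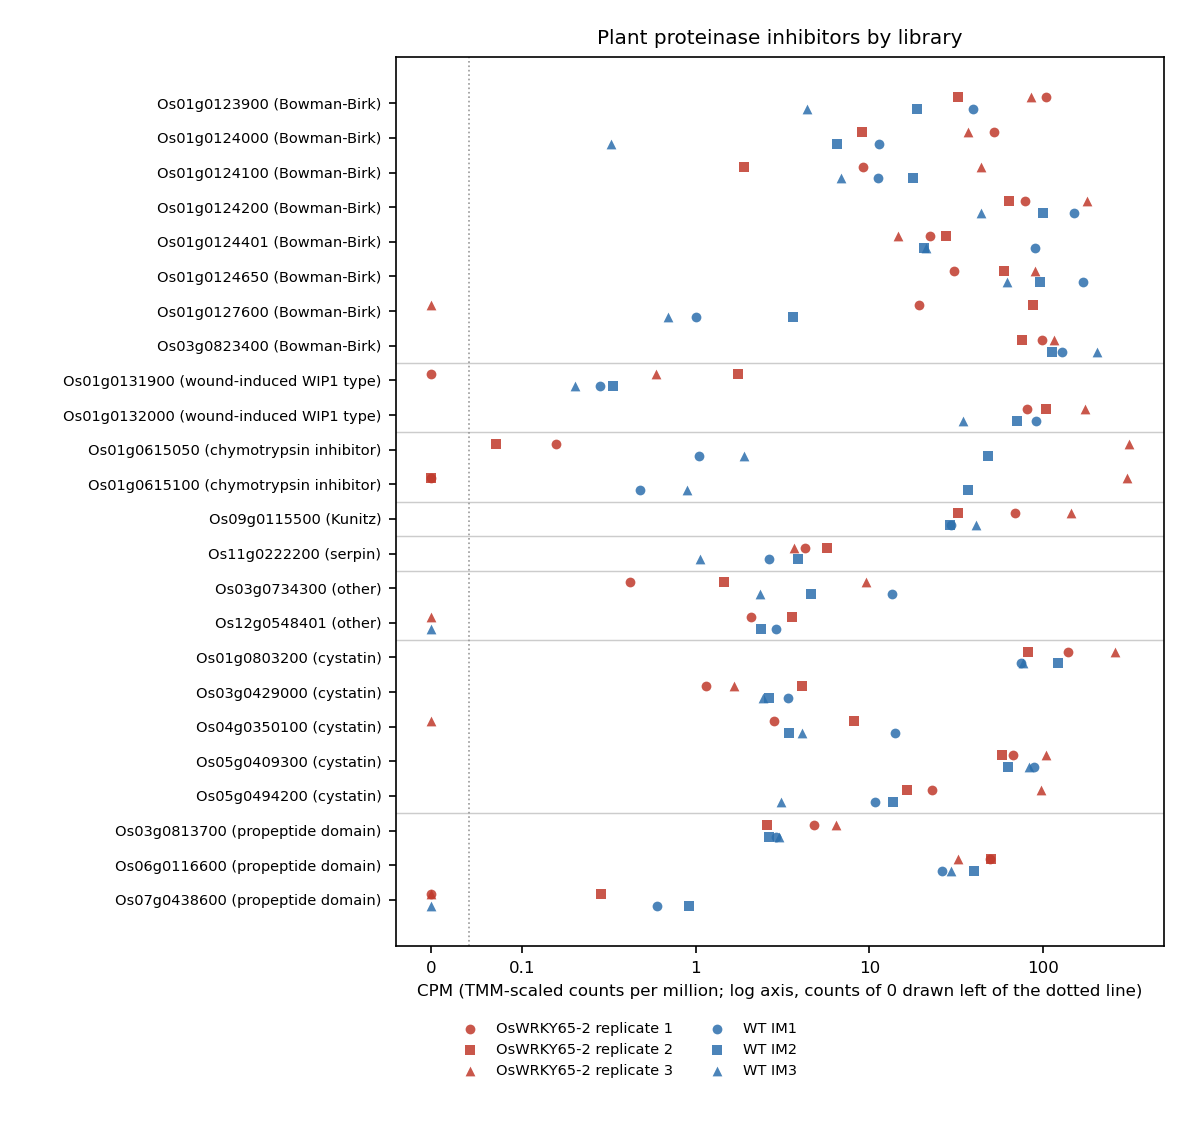
CPM of the 24 members in each library on a log axis, with OsWRKY65-2 in red above WT in blue within each row and counts of 0 left of the dotted line. In 10 members the rightmost symbol is the red triangle of OsWRKY65-2 replicate 3, and red and blue symbols overlap in every tested member but Os05g0494200.

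Of the 24 members, 10 reached their highest CPM in OsWRKY65-2 replicate 3, in 5 of them at 2-fold or more above the next library. Among tested genes the shares were 10 of 22 members and 27.6% of all genes. At the same time 3 of the 22 tested members had no count in that library, beside 17.9% of all tested genes. At the other end, WT IM3 was the lowest library for 6 of the 18 members that had counts in all libraries. For this count and for the 2-fold count above, no share over all genes was taken. Averaged over the 6 libraries, 18 members reached 10 TPM. Over all of them the cystatin Os01g0803200 had the highest mean, 247 TPM, followed by the wound-induced inhibitor Os01g0132000 at 237 TPM and the Bowman-Birk gene Os03g0823400 at 207 TPM. Within a genotype the order was another. In OsWRKY65-2 the chymotrypsin inhibitor Os01g0615050 came first, at 337 ± 583 TPM (SD, n = 3), nearly all of it from replicate 3, and in WT Os03g0823400 did, at 267 ± 67.0 TPM (SD, n = 3).

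Bowman-Birk inhibitors, small proteins stabilised by disulphide bonds that can bind trypsin and chymotrypsin, were the largest family with 8 members, all of them tested. None was called, 5 had a positive fold change, and their median log2 fold change was 0.37, or -0.62 without OsWRKY65-2 replicate 3. Their summed level was 597, 557 and 789 TPM in OsWRKY65-2 replicates 1 to 3, and 1086, 672 and 558 TPM in WT IM1 to IM3. The highest sum was therefore in a WT library and the others overlapped.

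By their identifiers 6 of these genes are neighbours on chromosome 1, from Os01g0123900 to Os01g0124650. Their sequences were not compared, and near-identical copies could share reads, so the split of reads among them is uncertain. The profile changed along the row. Os01g0123900, annotated as similar to the Bowman-Birk inhibitor EBI, was at 104, 32.4 and 85.5 CPM in OsWRKY65-2 and at 39.6, 18.7 and 4.39 CPM in WT. Its neighbour Os01g0124000, a Bowman-Birk trypsin inhibitor, was at 52.4, 9.10 and 37.1 CPM in OsWRKY65-2 and at 11.4, 6.48 and 0.325 CPM in WT. In both genes OsWRKY65-2 replicates 1 and 3 lay above every WT library, while replicate 2 lay below WT IM1. The log2 fold changes were 1.82 ± 0.82 and 2.42 ± 1.19 (SE, edgeR adjusted p = 0.764 for both), and both stayed positive without replicate 3, at 1.70 and 2.32.

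Further along, Os01g0124100 was at 9.23, 1.89 and 43.7 CPM in OsWRKY65-2 and at 11.2, 17.7 and 6.91 CPM in WT. Its value in replicate 3 was 7.86 times the mean of replicates 1 and 2, and the log2 fold change of 0.61 ± 1.04 became -1.10 ± 0.66 without that library (edgeR adjusted p = 0.923 and 0.598). Os01g0124200, a trypsin inhibitor annotated as the target of a fungal effector in resistance to the blast fungus M. oryzae, was at 78.6, 63.2 and 179 CPM in OsWRKY65-2 and at 149.9, 99.9 and 43.6 CPM in WT. The ranges of the genotypes overlapped over most of their length, and the log2 fold change was 0.13 ± 0.57 (edgeR adjusted p = 0.973).

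The last genes of the row leaned the other way. Os01g0124401, annotated with a defence response, was at 22.4, 27.6 and 14.7 CPM in OsWRKY65-2 and at 90.3, 20.5 and 21.2 CPM in WT. Only WT IM1 stood apart, and without it the log2 fold change of -1.03 ± 0.66 was 0.04. Os01g0124650, a serine protease inhibitor annotated with resistance to a fungal pathogen, was at 30.6, 59.4 and 89.4 CPM in OsWRKY65-2 and at 170.1, 95.5 and 62.3 CPM in WT. Replicates 1 and 2 of OsWRKY65-2 lay below all WT libraries and replicate 3 within them. The log2 fold change was -0.87 ± 0.52 (SE, edgeR adjusted p = 0.780), and -1.28 ± 0.45 without replicate 3 (edgeR adjusted p = 0.384).

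**Figure D2:**
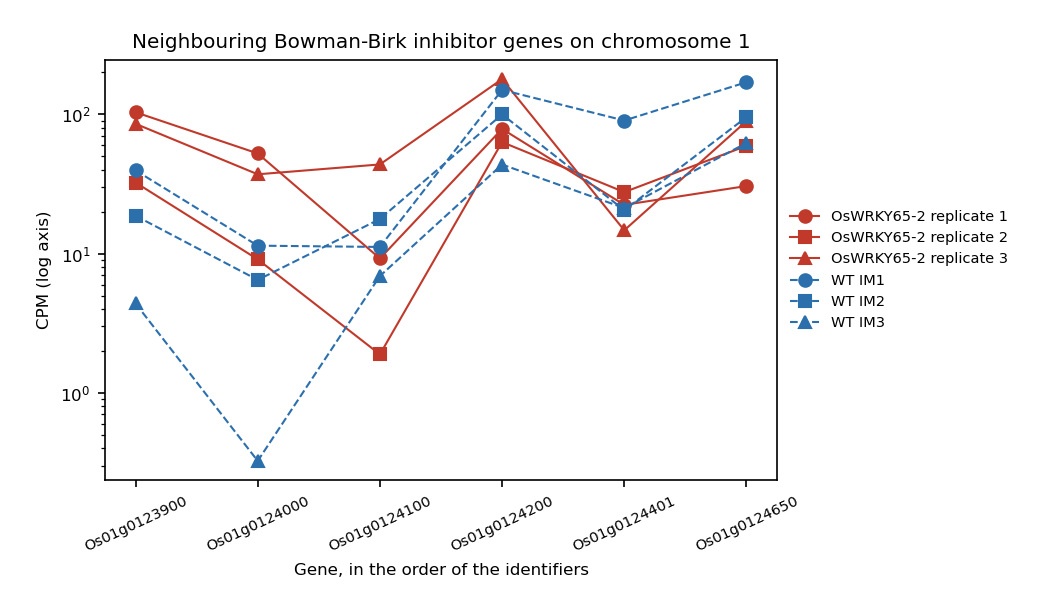
CPM (log axis) of 6 neighbouring Bowman-Birk genes in the order of their identifiers, with 1 line for each library, red and solid for OsWRKY65-2 and blue and dashed for WT. WT IM3 is lowest at the left, at 4.39 and 0.325 CPM, and WT IM1 is highest in the last gene at the right, at 170.1 CPM.

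A Bowman-Birk gene outside the row, Os01g0127600, annotated as similar to inhibitor D-II, had the highest log2 fold change of all members. It was at 19.2, 87.6 and 0 CPM in OsWRKY65-2 and at 1.0, 3.64 and 0.691 CPM in WT. OsWRKY65-2 replicates 1 and 2 lay above every WT library, and replicate 3, with no count, lay below every one. Over all libraries the mean was 35.6 ± 46.1 CPM in OsWRKY65-2 and 1.78 ± 1.62 CPM in WT (SD, n = 3 each), so that the log2 fold change was 4.26 ± 2.01 (SE, edgeR adjusted p = 0.764). Without OsWRKY65-2 replicate 2, its highest library, it was 2.33 (edgeR adjusted p = 0.624). Without replicate 3 it was 4.82 ± 0.81 (SE, edgeR adjusted p = 0.130), and the gene passed in DESeq2 (adjusted p = 2.74e-07). It also fell just under the threshold in edgeR with the replicate number as a block (adjusted p = 0.0497). That block pairs libraries by number alone, and same-numbered libraries did not deviate together. On those 5 libraries DESeq2 called 1.11% of all genes higher and 1.73% lower, and edgeR with the block called 0.0284% higher and 0.00405% lower.

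The remaining Bowman-Birk gene, Os03g0823400 on chromosome 3, is annotated as similar to the trypsin inhibitor WTI. It was at 98.4, 75.3 and 115 CPM in OsWRKY65-2 and at 129, 113 and 205 CPM in WT. Replicates 1 and 2 of OsWRKY65-2 lay below all WT libraries, and replicate 3 lay just above WT IM2. Means were 96.3 ± 20.0 CPM in OsWRKY65-2 and 149 ± 49.5 CPM in WT (SD, n = 3 each), so that the log2 fold change was -0.63 ± 0.30 (SE, edgeR adjusted p = 0.764), and -0.78 ± 0.29 without replicate 3 (edgeR adjusted p = 0.417).

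A neighbouring pair on chromosome 1 is annotated as similar to the wound-induced inhibitor WIP1, which in maize is a Bowman-Birk-type protein made after wounding. Os01g0132000 was at 81.2, 104 and 174 CPM in OsWRKY65-2 and at 91.5, 71.1 and 34.5 CPM in WT. OsWRKY65-2 replicate 1 lay below WT IM1, so the groups overlapped. The log2 fold change was 0.87 ± 0.45 (SE, edgeR adjusted p = 0.770). Its neighbour Os01g0131900 was barely expressed, at 0, 1.75 and 0.588 CPM in OsWRKY65-2 and at 0.280, 0.336 and 0.203 CPM in WT, and did not pass the filter on low counts.

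The chymotrypsin inhibitors Os01g0615050, annotated with drought resistance, and Os01g0615100, annotated with salt and osmotic stress tolerance, are also neighbours on chromosome 1 and had the widest range of all members. Os01g0615050 was at 0.157, 0.0713 and 312 CPM in OsWRKY65-2 and at 1.04, 48.2 and 1.91 CPM in WT. Os01g0615100 was at 0, 0 and 306 CPM in OsWRKY65-2 and at 0.480, 37.1 and 0.894 CPM in WT. Both genes were therefore high in 1 library of each genotype, OsWRKY65-2 replicate 3 and WT IM2, and low in the other 4. A count of 0 in OsWRKY65-2 replicates 1 and 2 allows up to 3 counts, or 0.157 and 0.107 CPM (counting error only).

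In OsWRKY65-2 replicate 3 the pair made up 44.8% of the summed TPM of all members, at 1826 of 4079 TPM. It made up 17.9% in WT IM2 and 0.879% or less in the other 4 libraries. The counts of Os01g0615100 were 0.978 times those of Os01g0615050 in OsWRKY65-2 replicate 3, 0.770 times in WT IM2, 0.462 times in WT IM1 and 0.468 times in WT IM3, while OsWRKY65-2 replicates 1 and 2 had 3 and 2 counts of Os01g0615050 and none of Os01g0615100. The sequences of the pair were not compared, and similar copies could share reads, so the split between the genes is uncertain. The log2 fold changes of the pair were 2.60 ± 2.79 and 2.98 ± 3.09 (SE, edgeR adjusted p = 0.880 and 0.874). They turned to -6.53 ± 2.07 and -7.39 ± 2.53 without OsWRKY65-2 replicate 3 (edgeR adjusted p = 0.357 and 0.411), where the second value depends on the prior count because the remaining OsWRKY65-2 libraries are at 0. On those 5 libraries DESeq2 called Os01g0615050 lower (adjusted p = 0.0132) and gave no adjusted p for Os01g0615100. No fit without both OsWRKY65-2 replicate 3 and WT IM2 was run.

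**Figure D3:**
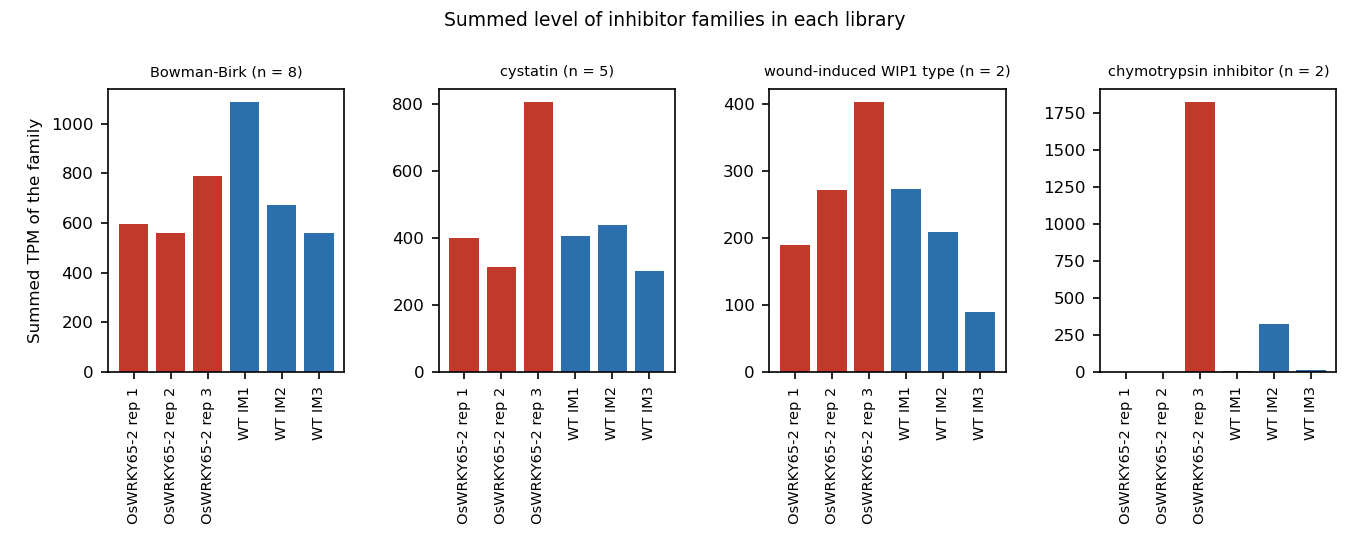
Summed TPM of 4 inhibitor families in each library, OsWRKY65-2 in red and WT in blue, with bars from 0 and a separate axis for each family. The chymotrypsin pair reaches 1826 TPM in OsWRKY65-2 replicate 3 and 324 TPM in WT IM2, and at most 9.49 TPM elsewhere. The other 3 families are at 89.8 TPM or more in each of the 6 libraries.

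The Kunitz inhibitor Os09g0115500, of a family that blocks serine proteases in legumes, was at 68.5, 32.5 and 146 CPM in OsWRKY65-2 and at 29.5, 29.2 and 41.3 CPM in WT. Replicates 1 and 3 of OsWRKY65-2 lay above every WT library and replicate 2 below WT IM3. The log2 fold change was 1.30 ± 0.54 (SE, edgeR unadjusted p = 0.0522, adjusted p = 0.763), and 0.60 ± 0.33 without replicate 3 (edgeR adjusted p = 0.557). The serpin Os11g0222200, of a family that traps its protease, was low, at 3.69 to 5.74 CPM in OsWRKY65-2 and 1.06 to 3.88 CPM in WT, with overlapping groups (log2 fold change 0.83, edgeR adjusted p = 0.822).

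Os03g0734300, annotated as similar to the type II inhibitor CEVI57, was at 0.420, 1.46 and 9.52 CPM in OsWRKY65-2 and at 13.5, 4.64 and 2.36 CPM in WT. OsWRKY65-2 replicates 1 and 2 lay below all WT libraries, while replicate 3 lay above WT IM2 and IM3. The log2 fold change was -0.83 ± 1.19 over all libraries and -2.74 ± 0.87 without replicate 3 (SE, edgeR adjusted p = 0.908 and 0.333). Os12g0548401, annotated just as similar to a proteinase inhibitor, reached 3.60 CPM in OsWRKY65-2 and 2.92 CPM in WT and had no count in OsWRKY65-2 replicate 3 and in WT IM3 (log2 fold change 0.10, edgeR adjusted p = 0.994).

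Cystatins, the inhibitors of papain-type cysteine proteases, had 5 members, and their summed level was 401, 313 and 804 TPM in OsWRKY65-2 and 406, 438 and 300 TPM in WT IM1 to IM3. Of the 5 members 2 had a positive fold change and none was called. Oryzacystatin-II, Os05g0494200, was the sole tested member whose genotypes did not overlap. It was at 22.9, 16.6 and 97.7 CPM in OsWRKY65-2 and at 10.8, 13.7 and 3.09 CPM in WT, so replicate 2 lay close above WT IM2. Means were 45.7 ± 45.1 CPM in OsWRKY65-2 and 9.18 ± 5.47 CPM in WT (SD, n = 3 each), so that the log2 fold change was 2.30 ± 0.87 (SE, edgeR unadjusted p = 0.0370, adjusted p = 0.763). For its CPM the exact permutation test, two-sided, gave p = 0.10, and 3 libraries against 3 can give no smaller value. Without replicate 3 the log2 fold change was 1.09 ± 0.53 (edgeR adjusted p = 0.514).

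The share of members whose OsWRKY65-2 libraries all lay above WT, 1 of 22, stood beside 7.16% of all tested genes, and 0 of 22 lay below WT in full, beside 10.5% of all genes. Counted without OsWRKY65-2 replicate 3, 4 of 23 members lay above WT and 5 below, beside 14.5% and 13.9% of all genes. The 4 were Os01g0127600, Os05g0494200, Os06g0116600 and Os11g0222200. The 5 were Os01g0124650, Os03g0823400, Os03g0734300, Os01g0615050 and Os01g0615100. At an unadjusted p under 0.05 there were 7 members on those 5 libraries, against 10.6% of all genes, and edgeR called 0 of 23, beside 0.0527% of all genes called higher and 0.0243% lower.

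Os01g0803200, the cystatin with the highest mean level, was at 139, 82.4 and 259.7 CPM in OsWRKY65-2 and at 74.8, 122 and 76.8 CPM in WT. Replicate 2 of OsWRKY65-2 lay below WT IM2, and the log2 fold change was 0.81 ± 0.46 (SE, edgeR adjusted p = 0.773). Os05g0409300, annotated as similar to the barley cystatin Hv-CPI3, varied least of all members with counts everywhere, by 1.78-fold between its highest and lowest library. It averaged 76.3 ± 24.1 CPM in OsWRKY65-2 and 78.0 ± 13.7 CPM in WT (SD, n = 3 each), so that the log2 fold change was -0.03 ± 0.29 (edgeR adjusted p = 0.987). The cystatin-domain genes Os04g0350100 and Os03g0429000 were lower, at 0 to 8.17 and 1.15 to 4.10 CPM in OsWRKY65-2 and at 3.45 to 14.1 and 2.44 to 3.40 CPM in WT, with log2 fold changes of -0.96 ± 1.51 and -0.29 ± 0.70 (edgeR adjusted p = 0.919 and 0.949). With 1 library left out, Os04g0350100 ranged from -2.33 without OsWRKY65-2 replicate 2 to -0.04 without WT IM1.

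A further 3 members are annotated through propeptide domains, the inhibitory stretch that protease precursors carry until they are activated. Os06g0116600 was at 49.3, 50.2 and 32.2 CPM in OsWRKY65-2 and at 26.3, 39.9 and 29.7 CPM in WT. Replicate 3 of OsWRKY65-2 lay below WT IM2, and the log2 fold change was 0.46 ± 0.28 (SE, edgeR adjusted p = 0.789). Os03g0813700, with a cathepsin propeptide, was at 2.57 to 6.42 CPM in OsWRKY65-2 and 2.66 to 3.01 CPM in WT (log2 fold change 0.66, edgeR adjusted p = 0.831). Os07g0438600, with a subtilisin propeptide, stayed under 1 CPM in every library and did not pass the filter.

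**Figure D4:**
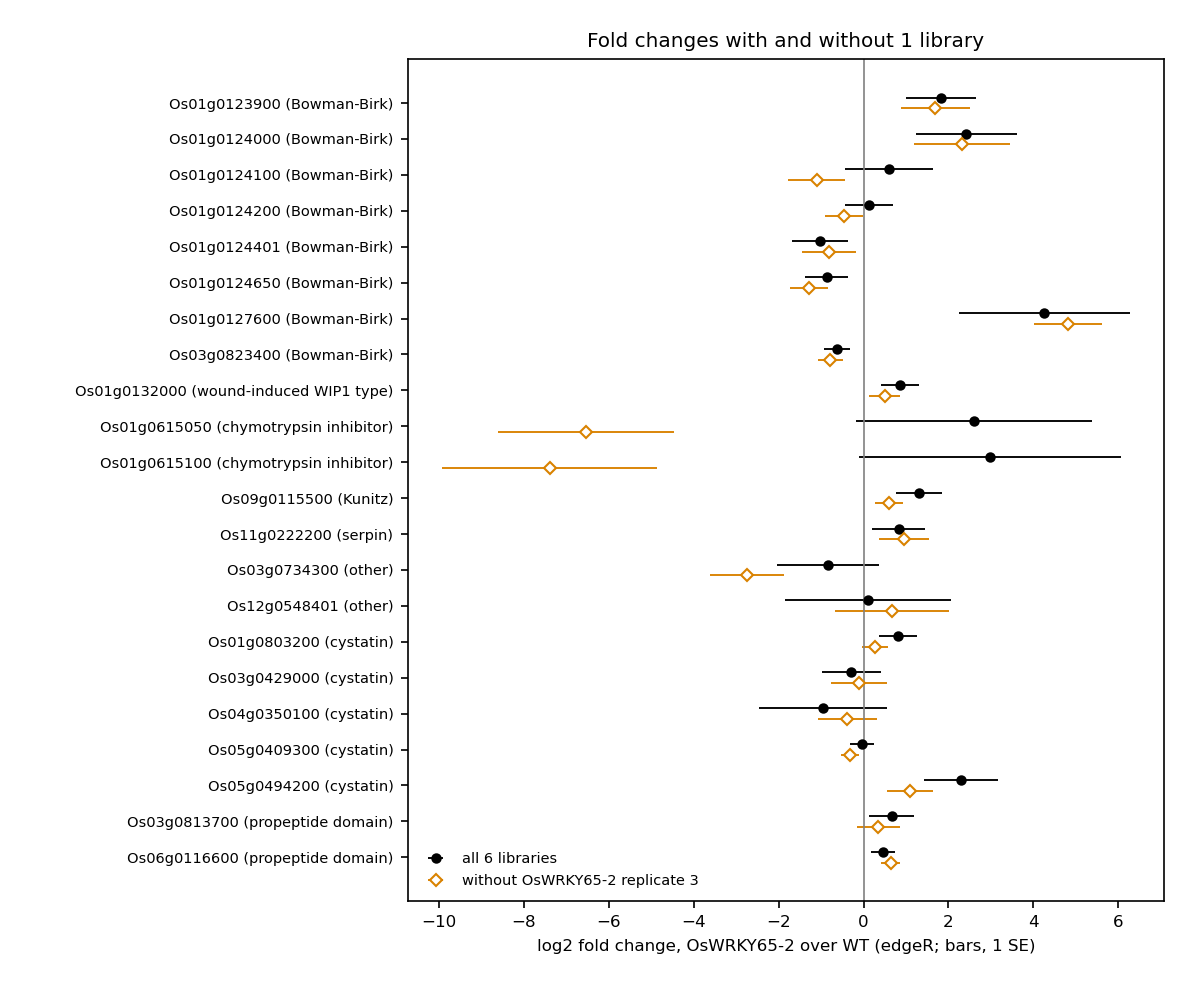
Log2 fold change of OsWRKY65-2 over WT for the 22 tested members, with bars of 1 SE, over all 6 libraries (black) and without OsWRKY65-2 replicate 3 (orange). The chymotrypsin pair is at 2.60 and 2.98 over all libraries and at -6.53 and -7.39 without that library, while Os01g0123900, Os01g0124000 and Os01g0127600 stay positive in both.

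The 20 genes that fitted the text but had too few reads held 11 with no count in any library. Another 5 had a count in 1 library and 4 in 2 libraries, none above 24 counts. They included cystatin, serpin, Kazal and bran-type Bowman-Birk annotations. Without counts above that level, differences between genotypes were not detectable in them at this depth.

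Proteases were described from a list of text patterns over 4 classes, which held 117 tested genes. Besides cysteine and serine proteases the list takes in aspartic proteases, which are not among the targets given above for these inhibitors. Which of the listed cysteine and serine proteases these inhibitors bind was not examined either. In edgeR 0 were called higher and 0 lower, beside 0% of all genes in both directions, and 5 had an unadjusted p under 0.05, beside 6.51% of all genes. DESeq2 called Os04g0576500 and Os10g0101200 higher (adjusted p = 0.0381 and 0.0282) and 0 lower, beside 1.76% and 1.27% of all genes. Positive fold changes were found for 52 of 117, beside 49.5% of all genes, with a median log2 fold change of -0.14, and for 57 of 124 without OsWRKY65-2 replicate 3, beside 51.6% (median -0.06). The OsWRKY65-2 libraries of 5 proteases all lay above WT and those of 19 all below, 4.27% and 16.2% of 117, beside 7.16% and 10.5% of all genes. Without OsWRKY65-2 replicate 3 these were 15 and 21 of 124, 12.1% and 16.9%, beside 14.5% and 13.9%. By class the medians were -0.13 for 18 cysteine proteases, -0.10 for 34 subtilases, -0.25 for 30 serine carboxypeptidases and 0.13 for 35 aspartic proteases. All 4 therefore lay below the 0.64 of the inhibitors over all libraries, a difference that was not tested. Without OsWRKY65-2 replicate 3 the class medians over the genes then tested were 0.04, 0.03, 0.01 and -0.24 in the same order. The inhibitors then had -0.10 over the 23 members tested. Over the 22 members tested in all 6 libraries they had 0.09. The class medians were not retaken over the proteases tested in all 6 libraries, so this value cannot be ranked beside them.

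Cysteine proteases of the papain type are the enzymes that cystatins bind. Os04g0576500, which has a papain C-terminal domain, was at 63.3, 42.5 and 60.1 CPM in OsWRKY65-2 and at 31.8, 28.0 and 36.7 CPM in WT, with every OsWRKY65-2 library above WT (log2 fold change 0.78 ± 0.24, edgeR adjusted p = 0.763). The abundant oryzain gamma gene Os09g0442300 was at 320, 172 and 396 CPM in OsWRKY65-2 and at 207, 139 and 177 CPM in WT, and these overlapped. Os10g0101200, a serine carboxypeptidase of grain filling, was at 192, 46.9 and 449.9 CPM in OsWRKY65-2 and at 43.4, 54.1 and 39.4 CPM in WT, so replicate 2 lay within WT (log2 fold change 2.33 ± 0.76, and 1.38 ± 0.49 without replicate 3, edgeR adjusted p = 0.763 and 0.381). The aspartic protease Os02g0720900, similar to nepenthesin, was at 91.8, 90.3 and 9.68 CPM in OsWRKY65-2 and at 222, 190.1 and 205 CPM in WT. All OsWRKY65-2 libraries of this gene lay below WT. Its log2 fold change was -1.69 ± 0.76, and -1.18 ± 0.19 without replicate 3 (edgeR adjusted p = 0.764 and 0.122).

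Subtilases are serine proteases of the subtilisin type. The abundant subtilase Os01g0653800 averaged 194 ± 54.1 CPM in OsWRKY65-2 and 246 ± 27.7 CPM in WT, and Os03g0119300 averaged 114 ± 51.5 CPM in OsWRKY65-2 and 104 ± 18.6 CPM in WT (SD, n = 3 each, overlapping). Os05g0435800 was at 14.6, 16.3 and 3.85 CPM in OsWRKY65-2 and at 24.2, 24.7 and 23.9 CPM in WT, all OsWRKY65-2 libraries below WT (log2 fold change -1.06 ± 0.53, edgeR adjusted p = 0.768). The most abundant genes of the other classes overlapped between genotypes. They were the stress-induced cysteine proteinase Os02g0469600, at 362 ± 109.8 CPM in OsWRKY65-2 and 296 ± 61.7 CPM in WT, and the serine carboxypeptidase Os10g0536500, at 60.8 ± 19.8 and 58.1 ± 0.178 CPM. The aspartic proteases Os05g0137400 and Os12g0177500 averaged 335 ± 96.7 and 207 ± 61.0 CPM in OsWRKY65-2, and 314 ± 44.0 and 155 ± 3.84 CPM in WT (SD, n = 3 each).

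**Figure D5:**
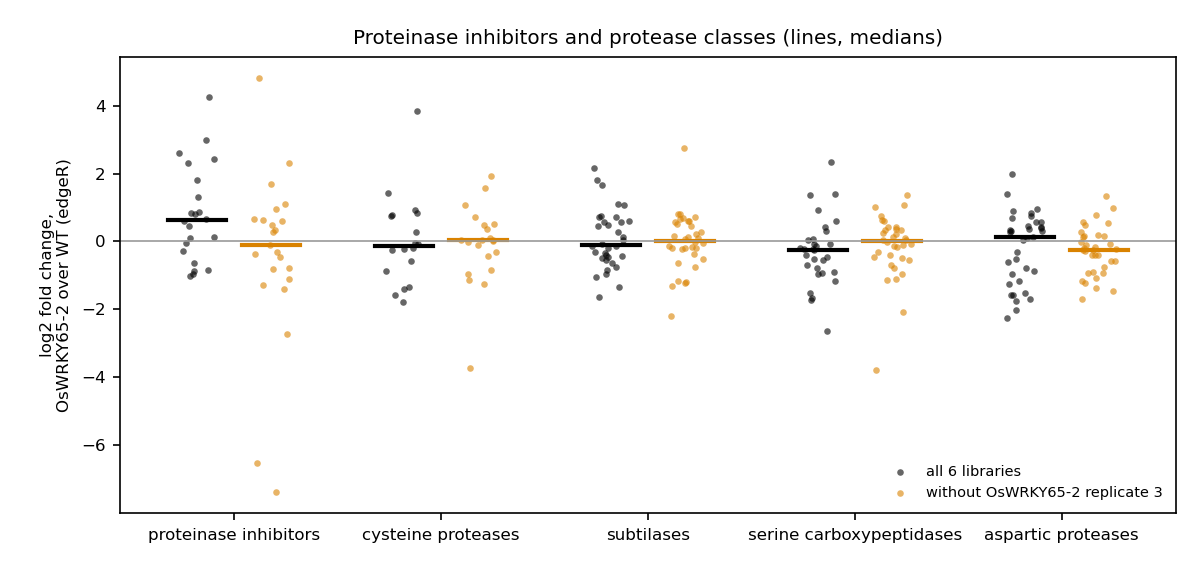
Log2 fold changes of the proteinase inhibitors and of 4 protease classes, 1 point per tested gene and a line at the median, over all 6 libraries (black) and without OsWRKY65-2 replicate 3 (orange). The median of the inhibitors is 0.64 over all libraries (22 members) and -0.10 without that library (23 members), and the class medians lie between -0.25 and 0.13.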

How the data were processed

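PolyA RNA of rice leaves was sequenced in 3 OsWRKY65-2 and 3 WT libraries. Their reads went, per the submitters' processing notes, through StringTie 2.1.3b, HISAT2 2.1.0, Trimmomatic and bcl2fastq 2.20.0 (listed with no order) on build IRGSP-1.0. How reads were counted, on which strand and with which annotation is not stated, so overlapping and antisense genes cannot be separated. The deposited read counts are estimated counts, whole as deposited, and were not normalized. The FPKM deposited by the authors were not used. The TPM deposited by the authors sum to 1000000 per library and served for levels between genes. Nothing in the labels says that replicates came from separate plants, so p-values measure the spread between libraries, which may be technical.

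Counts were tested with edgeR 4.0.16 (R 4.3.3; robust quasi-likelihood, TMM, filterByExpr with a minimum count of 10, genotype as the sole term) over all genes, checked on simulated data. The simulated libraries shared a mean profile, apart from the changed genes, and a common dispersion. None of them stood apart as OsWRKY65-2 replicate 3 does, so the check does not cover that feature of these data. Fold changes use a prior count of 2, and their SE is the absolute log2 fold change divided by the square root of F. DESeq2 1.42.0 ran on the same filtered genes, and limma 3.58.1, another normalization, no filter, a replicate block and the omission of each library were further alternatives. Counting the separated members and proteases without OsWRKY65-2 replicate 3 was added after seeing the data. The members, lists and tests were chosen with earlier results of these data known. The rule for naming took the 12 members with the highest mean TPM and the 8 with the smallest p, 14 in all, and the other 10 were added after their values were seen so that none is left out. Families follow the annotation text, and the cystatins include Os01g0803200, annotated as a cysteine protease inhibitor. It was placed there after reading its annotation, and the chymotrypsin, WIP1, serpin and propeptide groups were likewise formed after reading theirs. The WIP1 pair is not counted among the 8 Bowman-Birk members. Genes whose identifiers differ by at most 1000 were called neighbours. Genes matching the inhibitor text were kept out of the protease classes. The list fixed with the proteases also held 12 serpins outside the members, and 0 of them passed the filter over all 6 libraries. Some of these serpins are also among the genes that fitted the inhibitor text but had too few reads. Proteins and promoters were not analysed here. No library was left out of the main test.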

Additional observations from a re-analysis of the deposited data

How the results depend on the processing

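EdgeR's 0 calls in each direction became 2 higher and 0 lower with no filter or with limma-trend on log2(TPM + 1) or log2(TPM + 0.1), and 419 and 303 with DESeq2. With single libraries omitted there were 0 to 13 calls upward and 0 to 6 downward, all of them when OsWRKY65-2 replicate 3 was absent. In its absence the calls numbered 274 and 426 in DESeq2, and 7 and 1 with the replicate block. The median log2 fold change of the inhibitors, 0.64, was -0.12 and -0.13 with limma-trend at the pseudocounts of 1 and 0.1, where all genes had medians of -0.28 and -0.34, 0.064 with the replicate block, where all genes had -0.10, -0.10 to 0.93 with 1 library left out, and without OsWRKY65-2 replicate 3 -0.10 in DESeq2 and -0.25 with the block. Of 330 values of single members under 15 alternatives, 288 kept their direction short of the threshold, 2 kept it with no adjusted p given (the chymotrypsin pair in DESeq2) and 38 in 9 members turned sign. Past the threshold lay 3, all without OsWRKY65-2 replicate 3: Os01g0127600 at 4.91 in DESeq2 and 4.38 with the block, and Os01g0615050, which turned, in DESeq2.

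The log2 fold changes that turned were these, with limma-voom, limma-trend at pseudocounts of 1 and 0.1, and the block in that order: -0.55, -0.42, -0.51 and -0.26 for Os01g0124100, -2.42, -0.79, -1.85 and -2.06 for Os01g0615050, and -3.26, -0.17, -2.03 and -2.44 for Os01g0615100. With limma-trend, Os01g0124200 was at -0.10 in both and Os12g0548401 at -0.14 and -0.16. Without OsWRKY65-2 replicate 3, DESeq2 and the block gave -1.12 and -1.70 for Os01g0124100, -0.47 and -0.80 for Os01g0124200, -7.24 and -6.27 for Os01g0615050, and -10.65 and -7.69 for Os01g0615100. With 1 library left out, values ranged from -1.10 to 1.16 for Os01g0124100, from -0.47 to 0.58 for Os01g0124200, from -1.37 to 0.039 for Os01g0124401, from -0.32 to 0.12 for Os05g0409300, from -0.98 to 0.023 for Os03g0429000, from -0.75 to 0.66 for Os12g0548401, from -6.53 to 6.07 for Os01g0615050, from -7.39 to 7.06 for Os01g0615100 and from -2.74 to 0.13 for Os03g0734300. Of the 22 members 14 moved by over 1.5-fold in this way, and those that kept their sign ranged from 0.60 to 1.68 for Os09g0115500, from 1.33 to 2.66 for Os01g0123900, from 1.86 to 3.23 for Os01g0124000, from 2.33 to 5.26 for Os01g0127600, from -2.33 to -0.04 for Os04g0350100 and from 1.09 to 2.72 for Os05g0494200. The cause of these changes was not tested.

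The columns of WT carry numbers whose link to the replicate labels is not given, and same-numbered libraries did not deviate together (r = 0.0498, -0.0581 and -0.00648 across genes), so the replicate block pairs libraries by number alone. Several members rest on under 20 counts in some libraries, where a count of 0 allows up to 3 counts (0.0917 to 0.16 CPM). With 3 libraries per genotype the adjusted p of all members was 0.763 or more in the main edgeR test. The lowest edgeR value was 0.747 with the other normalization and 0.726 with no filter.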

Other observations

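The text rule left out 8 inhibitor annotations that also mention amylase, seed storage or lipid transfer, and 4 of these had no count in any library. Os03g0661600, annotated as similar to an alpha-amylase/trypsin inhibitor with antifungal activity, had 10, 16 and 783 counts in OsWRKY65-2 replicates 1 to 3 and 27, 189 and 0 counts in WT IM1 to IM3. Its highest 2 libraries, OsWRKY65-2 replicate 3 and WT IM2, are those of the chymotrypsin inhibitor pair, and it was singled out after its values were seen. Its log2 fold change was 2.60 ± 2.19 (SE, adjusted p = 0.842, edgeR). Os04g0526600, an alpha-amylase/subtilisin inhibitor of seed defence, had 0, 11 and 204 counts in OsWRKY65-2 and 0, 5 and 0 counts in WT, and did not pass the filter. The seed protein Os07g0214300 and the proline-rich protein Os12g0473900 had at most 74 counts in any library.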
